A study of Homo sapiens with 12 samples.

Results

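Transcript levels of 9 pluripotency and progenitor genes were read in 2 human hepatocellular carcinoma lines that had become resistant to lenvatinib, an oral inhibitor of VEGF and FGF receptors and other kinases. The genes were SOX2, SOX4, SOX9, LIN28B, DPPA4, SALL4, KLF4, PROM1 and CD24, taken by name from the deposited table of each line. The Hep3B table held 7 of them among 8717 named entries, the Huh7 table held 7 among 7533 genes, and 5 (SALL4, LIN28B, SOX4, PROM1 and CD24) stood in both. KLF4 and DPPA4 were not listed for Hep3B, and SOX2 and SOX9 were not listed for Huh7, so their levels there were not analysed here.

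Hep3B and Huh7 are established lines from liver tumours. RNA was sequenced from the parental form and the lenvatinib-resistant form of each line, in 4 groups of 3 libraries, 12 in all. All cells were grown in DMEM with serum. The treatment label reads DMSO or lenvatinib for every library, so the presence of drug at harvest is unknown, and the labels do not say whether a resistant line is 1 clone or a pool. The labels do not say that replicates came from separate cultures, so each p-value rests on the spread among these libraries alone, which may be technical.

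SOX2, KLF4, SALL4, LIN28B and DPPA4 are active in pluripotent cells and largely silent in the adult liver. SOX2, KLF4 and SALL4 bind DNA and act on the genes of the stem cell state, and DPPA4 is a chromatin protein of early embryos that pairs with its neighbour DPPA2. LIN28B binds precursors of the let-7 microRNAs and keeps them from maturing, and let-7 in turn represses LIN28B and a set of growth genes. SOX9 and SOX4 act in bile duct development, and PROM1 (the surface protein CD133) and CD24 are surface markers used to sort liver progenitor and tumour-initiating cells. SALL4, LIN28B and several of these markers are made in fetal liver and return in part of liver cancers.

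The let-7 microRNAs, whose precursors LIN28B binds, are shown first. Examples of the mature forms, taken from RefSeq, are given with bases 2 to 8, the seed that pairs with target transcripts, in capitals. All 8 names held 1 seed, GAGGUAG.
hsa-let-7a-5p: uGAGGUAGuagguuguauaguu
hsa-let-7d-5p: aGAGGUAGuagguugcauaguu
hsa-let-7g-5p: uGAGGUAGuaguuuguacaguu
hsa-let-7i-5p: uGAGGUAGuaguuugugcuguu
In the hairpin of let-7g, at chr3:52268278-52268361 on the minus strand of GRCh38.p14, the capitals mark GGAG, the letters bound by LIN28 proteins. These letters were found in the loop of 9 of 11 let-7 hairpins. The microRNAs themselves were not analysed here.
MIRLET7G: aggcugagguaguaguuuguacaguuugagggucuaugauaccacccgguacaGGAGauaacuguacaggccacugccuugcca

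Values are scaled reads, that is, whole reads recovered from the deposited values and divided by the factor of the library. They are given as mean ± SD (n = 3), and changes are log2 fold changes of log2(scaled reads + 1), resistant over parental, ± SE. The reads listed per library ran from 6184939 to 7475190 in Hep3B and from 11480608 to 14174202 in Huh7. A Hep3B entry is 1 RefSeq transcript, which for a gene with several is only part of its reads, whereas a Huh7 entry is a whole gene. The Huh7 table lists only genes with a deposited adjusted p-value under 0.05, so a call there carries no information by itself, and the direction and size are what it adds. In bulk RNA, fewer cells making a transcript cannot be told apart from less of it per cell.

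In resistant Hep3B cells 2 of the 7 listed genes rose and 4 fell (limma, adjusted p under 0.05), and 1 did not pass. The share called over all Hep3B entries was 49.5%, with 27.6% higher and 21.9% lower. Groups did not overlap for 6 of the 7 genes, against 56.3% of all entries. The median log2 fold change of the 7 was −0.63, beside 0.07 over all entries. This median is the value of PROM1, the gene that did not pass. In resistant Huh7 cells 4 of the 7 listed genes rose and 3 fell, in a table where 100% of genes were called, 48.0% of them higher and 52.0% lower. Groups did not overlap for any of the 7, against 98.6% of all genes. Their median was 0.26, which is the value of CD24, beside −0.19 over all genes. Centring each library on its median moved the median of all Hep3B entries from 0.07 to −0.09, and no member changed direction under it.

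**Figure D1:**
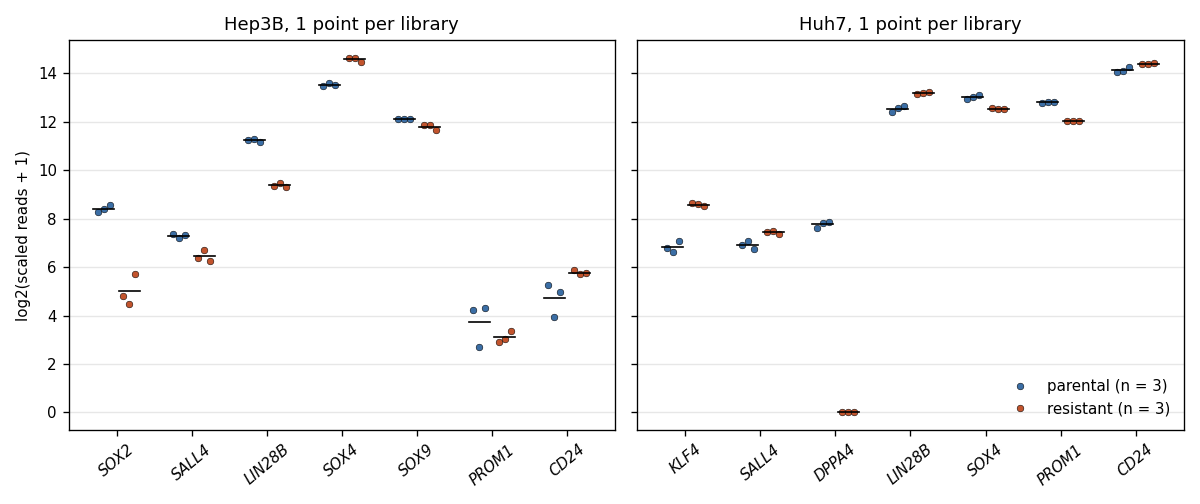
Level of each listed gene in every library, as log2(scaled reads + 1), for Hep3B (left) and Huh7 (right); each point is 1 library and each bar a group mean (n = 3). The parental and resistant points are apart for every gene except PROM1 in Hep3B, and DPPA4 lies at 0 in all 3 resistant Huh7 libraries. The panels were scaled separately.

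Among the pluripotency factors, SOX2 in Hep3B had 307, 338 and 373 scaled reads in the parental libraries and 27.2, 21.4 and 51.2 in the resistant ones. Every resistant library was far below every parental one. SOX2 is an HMG-box factor that works with OCT4 in embryonic stem cells. It fell from 339 ± 33.5 to 33.3 ± 15.8, a 10.2-fold lower mean and a log2 change of −3.40 ± 0.26 (limma, adjusted p = 7.84e-07). This was the 22nd fall by size among 8717 entries. The resistant libraries still held 29, 21 and 49 reads of SOX2, a low but measured level.

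DPPA4 in Huh7 had 197, 226 and 229 scaled reads in the parental libraries and no read in any of the 3 resistant libraries. The parental libraries together held 689 reads. Against a floor of 3 reads over the group, the level was at least 209-fold lower in resistant cells, where the floor covers counting error only. The fitted change of −7.77 ± 0.31 (limma, adjusted p = 6.11e-14) depends on the added constant, and the authors' deposited table gives −10.15. It stood 3rd among 7531 genes by size of fall. DPPA2, the gene beside DPPA4 and its partner protein, fell from 55.5 ± 8.92 to 12.5 ± 1.16 in the same cells, a log2 change of −2.06 ± 0.26 (limma, adjusted p = 7.63e-07). On the other side NECTIN3 changed by −0.20 ± 0.07, and beyond DPPA2 the next listed gene, DZIP3, rose by 0.56 ± 0.07. The 10 listed genes on each side of DPPA4 were 8 higher and 12 lower, beside 48.0% higher over the whole table.

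KLF4, a zinc finger factor of the reprogramming set that is also made in differentiating epithelia, had 110, 98.7 and 133 scaled reads in parental Huh7 libraries and 400, 385 and 363 in resistant ones. All 3 resistant libraries were above all 3 parental ones. It rose from 114 ± 17.4 to 382 ± 18.7, a log2 change of 1.75 ± 0.12 (limma, adjusted p = 1.95e-10). Of the 20 nearest listed genes around KLF4, 19 were higher and 1 lower, beside 48.0% higher over the whole table. Their median was 0.47, so the stretch as a whole lay above the table's median of −0.19. KLF4 lay well above that stretch, beside ZNF462 at 1.82 ± 0.17.

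SALL4, a zinc finger factor of stem cells and fetal liver, fell in Hep3B and rose in Huh7. In Hep3B its values were 162, 146 and 159 in parental libraries and 82.6, 103 and 74.3 in resistant ones, and the groups did not overlap. The change from 156 ± 8.71 to 86.6 ± 14.7 was −0.85 ± 0.15 (limma, adjusted p = 9.74e-05). In Huh7 it had 119, 133 and 105 scaled reads in parental libraries and 171, 180 and 164 in resistant ones, again without overlap. The change from 119 ± 14.1 to 172 ± 7.88 was 0.53 ± 0.13 (limma, adjusted p = 0.00113). Around SALL4 in Huh7, 3 of the 20 nearest listed genes were higher and 17 lower, with a median of −0.39. The nearest before it, ATP9A (0.42 ± 0.06) and NFATC2 (0.34 ± 0.09), rose as SALL4 did. The nearest after it, ZFP64 (−0.34 ± 0.08) and TSHZ2 (−0.99 ± 0.18), fell.

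LIN28B had the largest difference between the lines among the members in both tables. In Hep3B it had 2422, 2509 and 2314 scaled reads in parental libraries and 655, 713 and 640 in resistant ones. Its level fell from 2415 ± 97.7 to 669 ± 38.3, a log2 change of −1.85 ± 0.06 (limma, adjusted p = 2.71e-15). In Huh7 it had 5405, 6001 and 6400 scaled reads in parental libraries and 8971, 9238 and 9677 in resistant ones. It rose from 5935 ± 501 to 9296 ± 356, a log2 change of 0.65 ± 0.06 (limma, adjusted p = 5.00e-09). Neither line had overlapping groups. Its paralog LIN28A was near the detection limit in both tables, at 4.91 ± 2.24 scaled reads in parental and 6.34 ± 2.16 in resistant Hep3B, and at 6.63 ± 4.23 in parental Huh7 with no read in resistant Huh7.

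**Figure D2:**
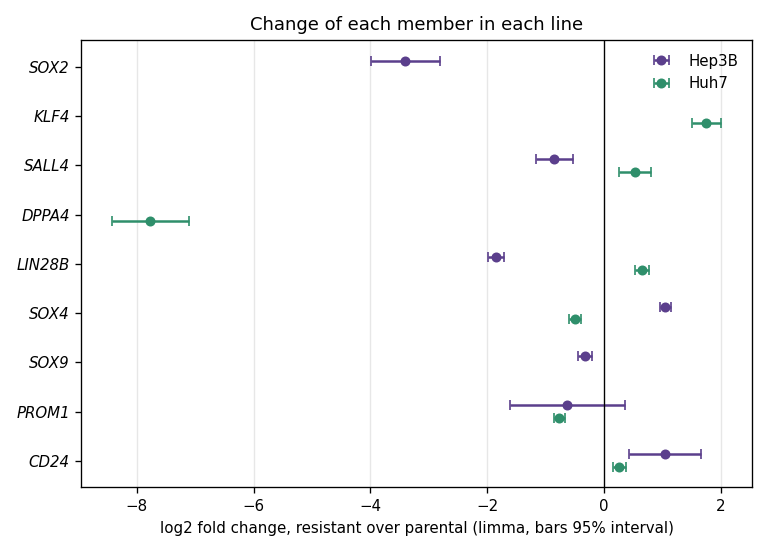
Log2 fold change, resistant over parental, of each listed gene in Hep3B (purple) and Huh7 (green), with limma's 95% interval from 3 libraries per group. LIN28B and SALL4 lie below 0 in Hep3B and above 0 in Huh7, SOX4 lies the other way round, and the value of DPPA4 depends on the constant added before the log.

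SOX4, an HMG-box factor of progenitor cells and of TGF-beta responses, went the other way. In Hep3B it had 11343, 12361 and 11707 scaled reads in parental libraries and 25384, 25028 and 22649 in resistant ones. The rise from 11803 ± 516 to 24354 ± 1487 was 1.04 ± 0.05 on the log2 scale (limma, adjusted p = 2.58e-13). In Huh7 it had 7896, 8302 and 8803 in parental libraries and 6025, 5858 and 5829 in resistant ones. The fall from 8334 ± 454 to 5904 ± 106 was −0.50 ± 0.05 (limma, adjusted p = 2.99e-08). The non-coding gene CASC15, the nearest listed gene after SOX4, also rose in Hep3B (0.95 ± 0.21, limma adjusted p = 0.000708) and fell in Huh7 (−1.21 ± 0.25, limma adjusted p = 0.000197). CASC15 had means of 45.0 and 87.9 scaled reads in parental and resistant Hep3B, far below those of SOX4. On the other side of SOX4, E2F3 rose in Hep3B (0.73 ± 0.21, limma adjusted p = 0.00719) and fell in Huh7 (−0.25 ± 0.08, limma adjusted p = 0.00559). CDKAL1, the nearest listed gene before SOX4 in Hep3B, rose there (0.63 ± 0.07). Of the 20 nearest listed genes around SOX4, 6 rose, 8 fell and 6 did not pass in Hep3B. In Huh7 the count was 13 higher and 7 lower.

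SOX9, a factor of bile duct and progenitor cells, was listed in Hep3B alone. Its values were 4477, 4437 and 4466 in parental libraries and 3737, 3722 and 3231 in resistant ones, without overlap. The fall from 4460 ± 20.9 to 3563 ± 288 was small, −0.33 ± 0.05 (limma, adjusted p = 4.22e-05). SOX9-AS1, an antisense partner, fell by 0.67 on the log2 scale (limma, adjusted p = 0.0439). Its means were 36.9 and 23.1 scaled reads in parental and resistant cells, far below those of SOX9. Since the strand setting is not given in the sources used here, reads of the pair cannot be told apart. LINC00673, the nearest listed gene after SOX9, rose (1.31 ± 0.11).

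Of the surface markers, PROM1 encodes the membrane protein CD133. In Huh7 it had 7087, 7177 and 7137 scaled reads in parental libraries and 4126, 4226 and 4230 in resistant ones. It fell from 7134 ± 44.8 to 4194 ± 58.7, a log2 change of −0.77 ± 0.05 (limma, adjusted p = 2.07e-11). In Hep3B the listed transcript, 1 of 19, had 17.5, 5.48 and 18.8 scaled reads in parental libraries and 6.57, 7.13 and 9.41 in resistant ones, so the groups overlapped. Its change of −0.63 ± 0.47 did not pass (limma, adjusted p = 0.283), on 43 and 23 reads in all. Without parental library 2, the lowest of its group, the change was −1.15 (limma, adjusted p = 0.0365).

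CD24, a small surface glycoprotein, rose in both lines. In Huh7 it had 16922, 17453 and 19521 scaled reads in parental libraries and 21323, 21213 and 21974 in resistant ones. The change from 17965 ± 1373 to 21503 ± 411 was 0.26 ± 0.05 (limma, adjusted p = 9.02e-05). In Hep3B the listed transcript, 1 of 7, had 37.7, 14.3 and 30.7 in parental libraries and 57.3, 51.9 and 52.3 in resistant ones, without overlap. The change was 1.04 ± 0.30 (limma, adjusted p = 0.00622) on 85 and 162 reads, and it was lost with limma run without trend and robust (adjusted p = 0.0664). Without parental library 2, the lowest of its group, the change was 0.64.

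Levels of different genes were compared per kilobase of exon (GENCODE 29 lengths), within each line. In parental Huh7 the order ran from CD24 at 5801 ± 443 scaled reads per kilobase through SOX4 at 1424 ± 77.6 to LIN28B at 989 ± 83.4 and PROM1 at 960 ± 6.03, the last pair closer than their spread. DPPA4 (43.5 ± 3.58), KLF4 (31.1 ± 4.75) and SALL4 (20.7 ± 2.44) followed at far lower levels. In resistant Huh7 LIN28B, at 1549 ± 59.4, stood above SOX4 at 1009 ± 18.0, and KLF4 at 105 ± 5.10 led the low group. In parental Hep3B the transcript levels ran from SOX4 (2017 ± 88.1) through SOX9 (1133 ± 5.30), LIN28B (439 ± 17.7) and SOX2 (135 ± 13.3) to CD24 (33.4 ± 14.6), SALL4 (29.9 ± 1.67) and PROM1 (3.47 ± 1.83). CD24 and SALL4 there did not differ beyond their spread. In resistant Hep3B SOX2 was at 13.2 ± 6.30, below SALL4 at 16.6 ± 2.82 by less than its spread.

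The difference between lines was tested directly for the 5 members in both tables, as the Huh7 change minus the Hep3B change, with p-values adjusted over 3885 shared symbols, 67.1% of which were called. LIN28B differed by 2.50 ± 0.08 (limma-based, adjusted p = 1.70e-25). SALL4 differed by 1.38 ± 0.20 (limma-based, adjusted p = 2.02e-07). For LIN28B and SALL4 the Hep3B entry is 1 of 2 transcripts, and the Huh7 entry is the whole gene. SOX4 differed by −1.54 ± 0.07 (limma-based, adjusted p = 1.01e-21). CD24 differed by −0.78 ± 0.30 (limma-based, adjusted p = 0.0265), which was lost in several alternatives. PROM1 differed by −0.14 ± 0.47 (limma-based, adjusted p = 0.814), an interval too wide to compare the lines. Of the 5 genes, 3 were called in opposite directions, against 29.1% of the shared symbols. Among those called in both lines this was 3 of 4 members, against 53.1% of 2132 symbols.

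**Figure D3:**
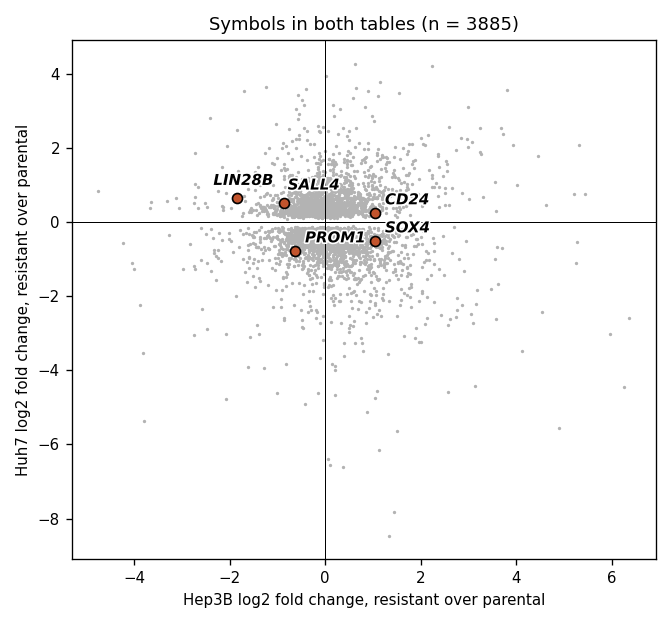
Log2 fold change, resistant over parental, in Hep3B (horizontal axis) and Huh7 (vertical axis) for the 3885 symbols in both tables (grey) and the 5 members (red). LIN28B and SALL4 lie at upper left and SOX4 at lower right, where both lines changed in opposite directions; the empty band near 0 on the vertical axis follows from the selection of the Huh7 table.

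The genes with the change pattern most like each member, by distance in the plane of both log2 fold changes among 2831 symbols with a mean of at least 50 scaled reads in the higher group of each line, were SOBP and PUM3 for SALL4, PAG1 and MYO9A for LIN28B, GLIS2 for SOX4, SDF2L1 and SMCO4 for PROM1, and FADS3 and TP53INP2 for CD24. The pattern rests on 2 lines. SOBP, at −0.88 and 0.52, is also 1 of the 10 listed genes that follow LIN28B on chromosome 6 in Hep3B.

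LIN28B and CD24 lie near each other on chromosome 6, and the listed genes around them were counted in each line. In Huh7 all 20 of the 10 nearest listed genes on each side of LIN28B were higher, beside 48.0% over the whole table. Their median was 0.72, close to the change of LIN28B itself. Around CD24 the count was also 20 of 20, with a median of 0.72, above the 0.26 of CD24 itself. The windows of both genes share members. In Hep3B 3 of the 20 genes around LIN28B rose, 12 fell and 5 did not pass, with a median of −0.28, a much smaller fall than the −1.85 of LIN28B. Around CD24 in Hep3B 2 of the 20 rose, 10 fell and 8 did not pass, with a median of −0.23, while CD24 itself rose by 1.04. Over all Hep3B entries 27.6% rose and 21.9% fell. CRYBG1, the second listed gene after LIN28B, fell by 4.19 on the log2 scale there (from 1435 to 78.4 scaled reads, limma, adjusted p = 2.47e-16). PRDM1, in the Huh7 window alone, rose by 2.78 ± 0.14 (limma, adjusted p = 2.13e-12). What the genes of this stretch share was not tested. The window of 10 genes was chosen after the nearest neighbours had been seen.

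**Figure D4:**
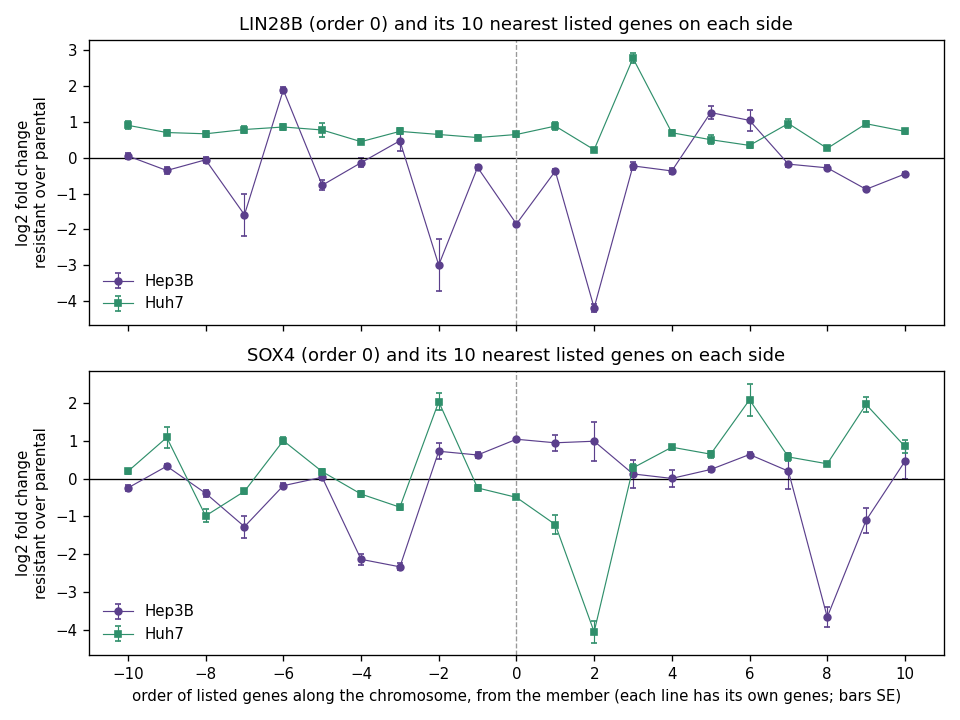
Log2 fold change, resistant over parental (bars, SE), of the 10 nearest listed genes on each side of LIN28B (top) and SOX4 (bottom), in order along the chromosome, in Hep3B (purple) and Huh7 (green); the member is at order 0. All 20 genes around LIN28B lie above 0 in Huh7, while genes around SOX4 take both signs in both lines. Each line has its own listed genes, so equal order does not mean the same gene.

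The wider pluripotency list of 45 genes had 15 measured in Hep3B, of which 2 rose, 6 fell and 7 did not pass (median −0.36), and 19 in Huh7, of which 11 rose and 8 fell (median 0.42). Over all Hep3B entries 27.6% rose and 21.9% fell, with a median of 0.07, and over all Huh7 genes 48.0% rose and 52.0% fell, with a median of −0.19; the list counts that follow stand beside these same shares. These counts include the members. POU5F1 and NANOG, which anchor the stem cell network, were listed in neither table. In Hep3B TRIM71, a stem cell RNA-binding protein and let-7 target, fell from 1499 ± 106 to 549 ± 38.8 (−1.45 ± 0.07, limma, adjusted p = 1.28e-12), and KLF2 rose from 266 ± 48.4 to 651 ± 123 (1.29 ± 0.15, limma, adjusted p = 2.13e-05). In Huh7 LEFTY1, a secreted inhibitor of Nodal signalling, fell from 71.3 ± 13.7 to 20.4 ± 9.25 (−1.82 ± 0.28, limma, adjusted p = 8.33e-06). MYC fell in Hep3B from 3344 ± 35.3 to 2254 ± 27.4 and rose in Huh7 from 1901 ± 81.5 to 2795 ± 188.

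Of 28 genes known as let-7 targets, 16 were measured in Hep3B, of which 2 rose, 10 fell and 4 did not pass. Their median was −0.67, beside 27.6% higher, 21.9% lower and a median of 0.07 over all entries. LIN28B and LIN28A are themselves on this list, so the 10 that fell include LIN28B and the 4 that did not pass include LIN28A. HMGA2, a chromatin protein of fetal tissue, had 4169, 4350 and 3925 scaled reads in parental and 824, 784 and 737 in resistant Hep3B libraries. Its fall of −2.41 ± 0.06 (limma, adjusted p = 3.90e-17) was larger than that of LIN28B. IGDCC3 fell from 2586 ± 48.7 to 547 ± 27.3 (−2.24 ± 0.06, limma, adjusted p = 1.24e-16). Among the fetal RNA-binding proteins, IGF2BP1 fell (−0.77 ± 0.16) while IGF2BP3 rose (0.52 ± 0.05).

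In Huh7, where LIN28B rose, 19 let-7 targets were listed, of which 7 rose and 12 fell. Their median was −0.29, beside −0.19 over all genes. The 7 that rose include LIN28B itself, and the 12 that fell include LIN28A. IGF1R, a growth factor receptor, fell from 1153 ± 28.5 to 552 ± 11.9 (−1.06 ± 0.07, limma, adjusted p = 4.39e-11). IGDCC3 fell here too, by 0.97 on the log2 scale, and so did HIC2, by 0.63. IGF2BP1 (−0.51 ± 0.05) and IGF2BP3 (−0.26 ± 0.06) fell, and IGF2BP2 rose (0.27 ± 0.05). Of 6 targets other than LIN28B called in both lines, 4 (IGDCC3, HIC2, IGF2BP1 and ARID3A) fell in both. MYC fell in Hep3B and rose in Huh7, as LIN28B did, and IGF2BP3 rose in Hep3B and fell in Huh7. HMGA2 and TRIM71 were not listed for Huh7.

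**Figure D5:**
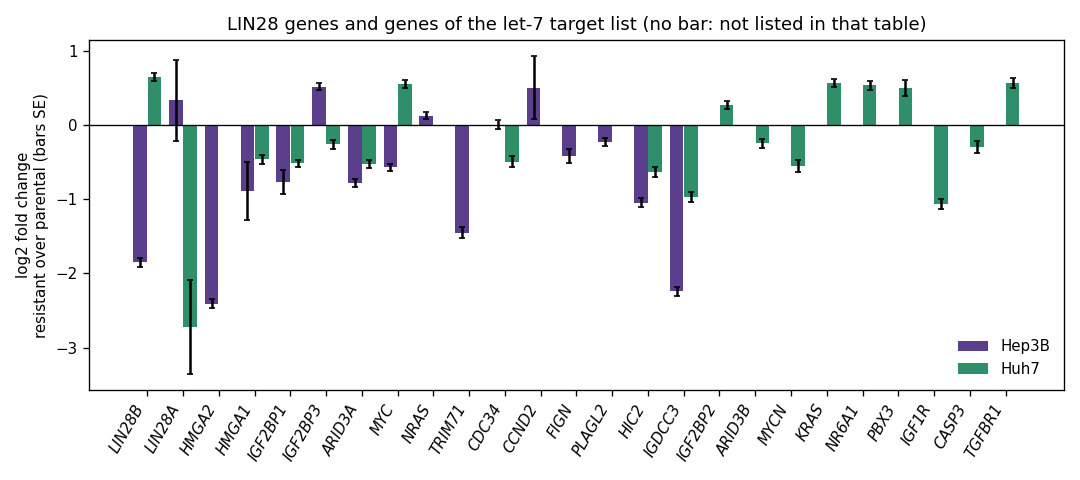
Log2 fold change, resistant over parental (bars, SE; n = 3 per group), of LIN28B, LIN28A and the listed let-7 targets in Hep3B (purple) and Huh7 (green); a missing bar means that the gene is not in that table. LIN28B points down in Hep3B and up in Huh7, and so does MYC; ARID3A, HIC2, IGDCC3 and IGF2BP1 point down in both, and IGF2BP3 points up in Hep3B and down in Huh7.

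A list of 11 genes held those that process let-7 and also LIN28A and LIN28B, which block its maturation. In Hep3B 5 were measured (1 rose, 2 fell and 2 did not pass, where 49.5% of all entries were called). In Huh7 6 were listed (3 rose and 3 fell, where 100% were called). These counts include LIN28B, which fell in Hep3B and rose in Huh7, and LIN28A, which did not pass in Hep3B and fell in Huh7. The nuclear export receptor XPO5 fell in Hep3B (−0.50 ± 0.05). DIS3L2, the nuclease that degrades let-7 precursors tagged by LIN28, rose in both lines. In Huh7 it went from 295 ± 23.3 to 432 ± 5.26 (0.55 ± 0.09). In Hep3B, where LIN28B fell, its listed transcript went from 12.5 ± 8.61 to 43.0 ± 2.34 (2.01 ± 0.52, limma, adjusted p = 0.00712), a low level. In Huh7 AGO2 rose (0.43 ± 0.07) and DICER1 fell (−0.25 ± 0.08), a call that DESeq2 did not make (adjusted p = 0.0585).

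Of 19 SOX genes, 9 were measured in Hep3B, of which SOX4 alone rose and 6 fell, among them SOX13 (from 2212 ± 86.3 to 865 ± 25.9, −1.35 ± 0.06). SOX18 was called lower at −0.39 ± 0.13 and lost that call in 5 alternatives. In Huh7 the 3 listed SOX genes, SOX4, SOX5 (−0.44 ± 0.09) and SOX13 (−0.45 ± 0.08), all fell. Of 17 KLF genes, 9 were measured in Hep3B, of which 4 rose, 2 fell and 3 did not pass; with median centring 2 rose. KLF12 rose from 138 ± 12.8 to 365 ± 21.5 (1.40 ± 0.11) and KLF15 fell (−0.78 ± 0.13). In Huh7 5 of 7 rose, with KLF4 the largest and KLF2 next (0.58 ± 0.10), and 2 fell, among them KLF7 (−0.37 ± 0.08).

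SALL4 recruits the NuRD complex, which removes acetyl groups from histones. Of its 13 genes, 8 were measured in Hep3B, of which 1 rose, 2 fell and 5 did not pass, where 49.5% of all entries were called. HDAC1 was called higher (0.26 ± 0.06) but not with median centring (adjusted p = 0.186), and MTA2 fell (−0.59 ± 0.05). In Huh7 4 of 11 rose and 7 fell. HDAC2 rose from 3701 ± 220 to 5689 ± 111 (0.62 ± 0.05) and MBD2 rose (0.89 ± 0.10). The paralogs CHD3 and CHD4, alternative motor subunits, went apart, CHD3 up (0.60 ± 0.06) and CHD4 down (−0.56 ± 0.10).

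Of 24 progenitor and tumour-initiating markers, 14 were measured in Hep3B (5 rose, 6 fell, 3 did not pass; 27.6% and 21.9% of all entries) and 13 in Huh7 (7 rose, 6 fell; 48.0% and 52.0% of all genes). EPCAM, an epithelial surface marker of liver progenitors, had means of 8714 ± 315 and 9283 ± 211 in parental and resistant Hep3B, a change that did not pass (0.09 ± 0.04, limma, adjusted p = 0.0827) but did with the replicate number as a block (adjusted p = 0.00328), and it turned to −0.067 with median centring. In Huh7 EPCAM rose from 1660 ± 100 to 3619 ± 84.6 (1.13 ± 0.06, limma, adjusted p = 1.46e-12). The aminopeptidase ANPEP (CD13) rose in Huh7 from 2209 ± 78.1 to 7143 ± 263 and LGR5 from 257 ± 25.4 to 536 ± 27.1, while SPP1 fell from 80.6 ± 5.94 to 23.6 ± 3.79. In Hep3B the duct keratin KRT7 rose from 10.5 ± 4.19 to 57.6 ± 8.40, a low level. KRT19, a duct keratin at a far higher level, fell there from 10543 ± 269 to 6522 ± 204 (−0.69 ± 0.04). AFP, the fetal liver protein, fell in Hep3B from 16585 ± 475 to 7496 ± 120 and rose in Huh7 from 239517 ± 17569 to 318702 ± 9282. CD44 was listed in neither table.

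Hepatocyte markers stood beside these changes. Of 17, 9 were measured in Hep3B, none rose, 6 fell and 3 did not pass, with a median log2 fold change of −0.30. Their summed level went from 334553 to 343915 in parental libraries to 158363 to 163665 in resistant ones. Those sums were mostly ALB, from 208255 ± 8372 to 112734 ± 2914, and APOB, from 119491 ± 13136 to 40799 ± 5420. In Huh7 4 of 13 rose and 9 fell, with sums of 205730 to 220440 and 200012 to 205286. ALB was not listed there, and those sums were mostly APOB, SERPINA1 and FGB, so the sums of the lines hold partly different genes. Summed fibroblast markers went from 616 to 693 up to 2224 to 2501 in Hep3B (4 of 6 measured, 2 higher and 2 lower). That rise was mostly COL1A1, from 24.9 ± 7.23 to 1937 ± 177, with COL1A2 from 79.3 ± 20.8 to 320 ± 23.5. LUM fell from 355 ± 28.8 to 67.8 ± 12.9 and PDGFRB from 203 ± 14.8 to 47.4 ± 9.33. In Huh7 the sum went from 4161 to 4350 down to 884 to 888 (3 of 6, all lower). Leukocyte markers had 2 of 6 measured in each line, 1 higher and 1 lower in both. In Hep3B LAPTM5, at 1.96 ± 1.85 and 12.2 ± 7.58 scaled reads, was the higher one, and in 6 alternatives no leukocyte marker was called higher there. The defining marker PTPRC was listed in Huh7 alone, where it rose from 19.6 ± 5.15 to 43.3 ± 16.4 (limma, adjusted p = 0.00274). The sums, nearly all LYZ, went from 438 to 520 down to 108 to 121 in Hep3B and from 6456 to 6674 down to 5280 to 5460 in Huh7. Endothelial markers had 2 of 5 measured in Hep3B (1 higher, 1 not passed) and 3 in Huh7 (1 higher, 2 lower), and CDH5 was in neither table. Their sums were 28.5 to 46.6 and 81.4 to 82.6 in Hep3B, and 133 to 171 and 236 to 255 in Huh7, parental and resistant. The part of these markers in the results above was not tested.

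Promoters are shown for 4 members: SOX2, DPPA4 and KLF4, which had the widest changes apart from LIN28B, and SOX4, which moved in opposite directions in the lines. LIN28B has several annotated starts and is not shown. Each runs from 250 bases before to 50 after the RefSeq start, in GRCh38.p14, written along the strand of the gene. Capitals mark GC boxes (GGGCGG) and CCAAT boxes (CCAAT) on either strand. A GC box was found in 45.0% and a CCAAT box in 34.6% of 35116 promoters of the same length.
SOX2 promoter, chr3:181711675-181711974, plus strand: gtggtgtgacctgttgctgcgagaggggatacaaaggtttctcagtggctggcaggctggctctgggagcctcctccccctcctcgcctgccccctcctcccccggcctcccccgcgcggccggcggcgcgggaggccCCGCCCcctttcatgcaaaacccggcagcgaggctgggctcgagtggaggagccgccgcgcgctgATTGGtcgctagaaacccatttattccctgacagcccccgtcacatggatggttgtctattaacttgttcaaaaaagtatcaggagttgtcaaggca
DPPA4 promoter, chr3:109337497-109337796, minus strand: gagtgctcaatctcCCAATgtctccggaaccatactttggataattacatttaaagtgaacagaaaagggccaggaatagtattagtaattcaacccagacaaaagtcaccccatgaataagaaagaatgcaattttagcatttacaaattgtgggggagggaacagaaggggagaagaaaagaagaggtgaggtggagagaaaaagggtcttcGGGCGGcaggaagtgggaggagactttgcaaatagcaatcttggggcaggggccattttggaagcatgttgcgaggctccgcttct
KLF4 promoter, chr9:107489720-107490019, minus strand: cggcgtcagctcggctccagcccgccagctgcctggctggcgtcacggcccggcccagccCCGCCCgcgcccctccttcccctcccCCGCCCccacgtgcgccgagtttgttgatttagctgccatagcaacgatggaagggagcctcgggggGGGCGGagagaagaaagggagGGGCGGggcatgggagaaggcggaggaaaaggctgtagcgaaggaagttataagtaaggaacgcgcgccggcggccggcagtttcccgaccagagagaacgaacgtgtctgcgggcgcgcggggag
SOX4 promoter, chr6:21593501-21593800, plus strand: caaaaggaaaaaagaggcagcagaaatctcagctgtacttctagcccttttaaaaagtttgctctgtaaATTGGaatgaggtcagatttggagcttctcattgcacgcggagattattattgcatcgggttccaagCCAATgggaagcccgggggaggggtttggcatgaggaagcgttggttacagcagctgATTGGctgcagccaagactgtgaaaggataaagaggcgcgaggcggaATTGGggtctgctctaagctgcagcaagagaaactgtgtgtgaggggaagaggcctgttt
The DPPA4 window held 5 CG pairs, against a median of 14 over all promoters, with 1 GC box and 1 CCAAT box. KLF4 held 33 CG pairs and 4 GC boxes, SOX2 held 20 with 1 of each box, and SOX4 held 8 with 4 CCAAT boxes and no GC box. The core ATTGTT, bound by SOX proteins and present in 10.1% of promoters, and the octamer ATGCAAAT, present in 1.77%, were searched on both strands and were in none of these 4 windows. Such matches describe letters only. Windows were matched for 7 of the 9 genes, all but SOX9 and SALL4.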

How the data were processed

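Total RNA was purified on columns and sequenced as Illumina libraries, per the labels' protocols, and GRCh37 is named in the submitters' processing notes. Which aligner, counter, strand setting and annotation were used is not given in the sources used here. From the numbers themselves, the signal values that the authors deposited were found to be, in Hep3B, 2 times the square root of (reads + 3/8) over 1 factor per library, for 1 RefSeq transcript per entry, and in Huh7 reads per Ensembl gene over 1 factor per library. Undoing this gave whole reads, within 0.05, for 100% of values. The deposited tables also hold the authors' log2 fold change and adjusted p-value (tool not stated). The Huh7 table was selected: its largest deposited adjusted p-value is 0.0499, while 4982 Hep3B entries have 0.05 or more. In Hep3B 1 entry names no gene (0.000119% of reads) and was left out.

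Within each table limma 3.58.1 (trend, robust; R 4.3.3) was run, two-sided, on log2(scaled reads + 1) for entries at 1 scaled read or more in 3 libraries, with Benjamini-Hochberg adjustment over the whole table and a threshold of 0.05. The tables were scaled separately, so levels were not compared across them. Lines were compared by subtracting the Hep3B from the Huh7 log2 fold change and dividing by the joint standard error, with Welch-Satterthwaite degrees of freedom, adjusted over shared symbols. The fit was also run on simulated counts, where only some entries with a mean of at least 50 scaled reads were changed. That run does not cover entries with fewer reads or tables with this many changes, and its outcome is not reported here. Alternatives were edgeR 4.0.16 and DESeq2 1.42.0 on the recovered reads, other constants, filters and scaling, a replicate block, and each library left out. Same-numbered Hep3B libraries deviated together (correlations of 0.136, 0.284 and 0.149), which pairs them by the data and not by a label.

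The members, gene lists and tests were chosen with earlier results of these data known. Named genes were all members; per list and line up to 4 genes with the largest called change and a mean of at least 50 scaled reads in the higher group, plus fixed anchors such as MYC, EPCAM and AFP; the 2 genes of nearest pattern (1 for SOX4 is not reported here); and the nearest listed genes on each side. ARID3A, LIN28A, PRDM1, KRT19, DIS3L2 in Hep3B and the named hepatocyte and fibroblast genes were added after their values were seen. RefSeq tables (GRCh38.p14) gave transcript numbers, gene order and sequences.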

Additional observations from a re-analysis of the deposited data

Results flagged for a closer look

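The change between resistant and parental cells differed between Huh7 and Hep3B for 4 of the 5 genes in both tables, by the test of the difference itself (Huh7 minus Hep3B, log2, limma-based). LIN28B differed by 2.50 and SALL4 by 1.38, each lower in resistant Hep3B and higher in resistant Huh7 in 3 of 3 libraries against every parental library. For both, the Hep3B entry is 1 of 2 transcripts and the Huh7 entry is the whole gene. SOX4 differed by −1.54, higher in resistant Hep3B and lower in resistant Huh7 in 3 of 3 libraries. CD24 differed by −0.78, with a rise in both lines; its Hep3B value rests on 85 and 162 reads of 1 of 7 transcripts. Such a difference was found for 67.1% of the 3885 shared symbols. Groups did not overlap for 56.3% of all Hep3B entries and 98.6% of all Huh7 genes. The Huh7 table lists only genes with a deposited adjusted p-value under 0.05, so the Huh7 change in each difference was selected beforehand.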

How the results depend on the processing

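Counts of members called stayed within 1.5 times in every alternative run. With the replicate block 6 Hep3B and 7 Huh7 members were called, as without it, and EPCAM in Hep3B (adjusted p = 0.00328) was the only named gene whose call it changed; in Huh7 the numbers share only a label (correlations of 0.051, −0.039 and 0.118). Over all entries Hep3B calls numbered 4186 with edgeR and 3846 with DESeq2, against 4317, and in Huh7 7244 and 7113, against 7531. Median centring moved the share of Hep3B calls that were higher from 55.7% to 39.2% (1747 higher and 2704 lower, against 2405 and 1912) and turned EPCAM in Hep3B to −0.067 (adjusted p = 0.223). The PROM1 difference between lines turned to 0.083 with median centring; leaving out 1 library at a time it ranged from −0.421 to 0.385, and was above 0 without Hep3B parental replicate 2 (0.385) and without Hep3B resistant replicate 3 (0.000204). The CD24 difference was lost without trend and robust (adjusted p = 0.109), with median centring (−0.56, adjusted p = 0.100), and without Hep3B parental replicate 2 (−0.38, adjusted p = 0.180), resistant replicate 1 (adjusted p = 0.0838) or resistant replicate 3 (adjusted p = 0.0565). SOX calls in Hep3B went from 7 to 4 with limma without trend and robust, and SOX18 ranged up to an adjusted p of 0.131. Leukocyte marker calls in Hep3B went from 2 to 1 with the stricter filter, edgeR, limma without trend and robust, and when any of parental library 3 and resistant libraries 2 and 3 was left out. DICER1 in Huh7 was lost in 3 alternatives. The cause of these changes was not tested. Low reads limit PROM1, CD24 and LIN28A in Hep3B.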

Other observations

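LEFTY1 rose in Hep3B from 2.34 ± 0.578 to 29.2 ± 3.80 scaled reads (limma, adjusted p = 2.37e-06), against its fall in Huh7. DNMT3B, a DNA methyltransferase of early embryos, rose in Huh7 from 834 ± 55.5 to 2155 ± 112 (1.37 ± 0.07, limma, adjusted p = 7.83e-13), and ALDH1A1, an aldehyde dehydrogenase used as a stem cell marker, from 31249 ± 648 to 59740 ± 484. In Hep3B ALDH1A1 fell from 15843 ± 584 to 13428 ± 503. KRT19, a duct keratin, fell in both lines, by 0.69 in Hep3B and by 0.66 in Huh7 on the log2 scale. These genes were chosen after their values were seen.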
